A study of Mus musculus with 16 samples.

Results

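Heat shock proteins and co-chaperones, 10 of the 18167 genes in the spinal cord expression table, were taken by symbol, and all 10 were present. They comprise the small heat shock proteins Hspb1, Hspb8 and Cryab, the HSP70 genes Hspa1a, Hspa1b and Hspa8 with their nucleotide exchange factor Hsph1 (HSP110), the HSP90 gene Hsp90aa1, the HSP40 gene Dnajb1 and the co-chaperone Bag3. RNA-Seq was performed on whole spinal cords of 16 mice labelled male that carried a human profilin 1 (PFN1) transgene, a gene mutated in some familial amyotrophic lateral sclerosis (ALS). Mutant mice carried hPFN1 G118V (Tg(Prnp-PFN1*G118V)838Kiaei on C57BL/6N), and controls carried wild-type hPFN1 (Tg(Prnp-PFN1)850Kiaei on C57BL/6N). Both transgenes were driven by the prion protein gene (Prnp) promoter, so each group carried human PFN1, and each genotype was 1 transgenic line. The groups were formed by genotype and age: 3 young wild-type mice (WY) and 3 young, pre-symptomatic mutant mice (MY), all 50 days old, 5 old wild-type mice (WO) aged 190 to 294 days, and 5 mutant mice at end stage (MO) aged 175 to 245 days. The question asked was how expression differs with disease (MY vs. MO, WO vs. MO). Expression was also compared with age in wild-type mice (WY vs. WO) and between the genotypes before symptoms (WY vs. MY). These comparisons share groups and are not independent of each other.

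Chaperones bind unfolded proteins. Small heat shock proteins hold such clients without using ATP, whereas HSP70 refolds them in ATP-driven cycles that HSP40 proteins start and exchange factors such as Hsph1 reset, and HSP90 completes the folding of selected clients. BAG3 links HSPB8 to HSP70 in a route that delivers aggregated proteins to autophagy. Heat shock factor 1 (Hsf1) induces many of these genes under proteotoxic stress, and Hspb1 is also known to rise in injured neurons and in reactive astrocytes.

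Values are log2(1 + FPKM) after a batch correction by the authors, and a change passed the test where limma's false discovery rate (FDR) over all genes was at most 0.05. A gene was called where it also changed by at least 1.5-fold, and all fold changes are on this log2(1 + FPKM) scale, which understates changes of low genes. The table holds no read counts, so the depth behind a gene's value is not known from it. Libraries of 3 mice stood apart. In the mouse labelled male MO5, Xist was 3.21 against at most 0.37 in the other 15 mice, with the Y-linked Ddx3y at 1.95 against at least 4.06, and MO1 was low in haemoglobin genes (Hba-a1 at 3.60). WY1 was below WY2 and WY3 in several chaperones of the wider list described later (Hspa4l at 5.35 against 6.10 and 5.84, Dnajb14 at 2.63 against 3.84 and 3.64). Hox genes of spinal cord position were present in every mouse (Hoxb8 from 5.44 to 5.95). Batch 2 held MO4, MO5, WO4 and WO5 and no young mouse.

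The members spanned a wide range of levels, which FPKM makes comparable between genes because it is per length. Hspa8, the constitutive HSP70, was highest with a mean of 10.50 on the log2(1 + FPKM) scale over the 16 mice, above 99.9% of all genes, followed by Hsp90aa1 at 9.16 and Cryab at 8.53. Hsph1 (6.53), Hspb1 (6.26) and Hspb8 (5.42) were intermediate. Dnajb1 (4.23) and Bag3 (4.21) overlapped in range, and the heat-inducible Hspa1a (1.54) and Hspa1b (1.37) were lowest, between 0.60 and 5.17 FPKM. In the MO group, Hspb1 rose past Hsph1: its mean there was 7.95 against 6.31 for Hsph1, whereas in WO it was 5.47 against 6.66.

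**Figure D1:**
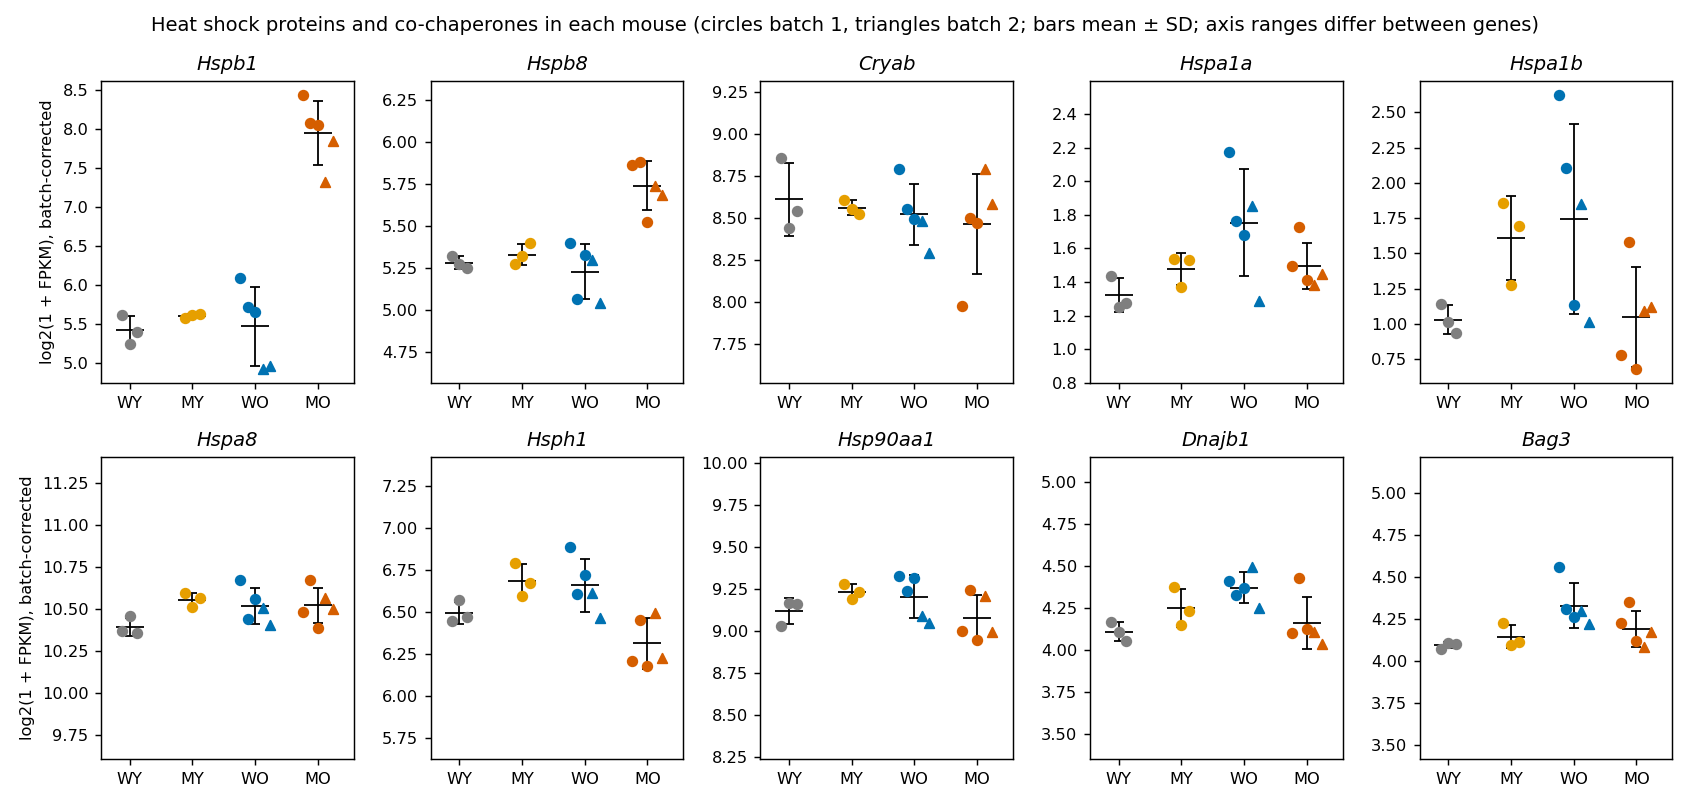
Level of each member in each mouse as batch-corrected log2(1 + FPKM), by group (WY, MY, WO, MO); circles are batch 1, triangles batch 2, and bars are the mean ± SD. The 5 MO mice stand above every other mouse for Hspb1 (7.33 and higher against at most 6.10) and for Hspb8, and axis ranges differ between genes.

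Hspb1 was the member that changed most. It encodes HSP25, the mouse form of human HSP27, and lies on chr5:135887919-135889563, plus strand (GENCODE M21, GRCm38). In MO1 to MO5, Hspb1 was 8.44, 8.07, 8.05, 7.33 and 7.84. The MY mice were at 5.58, 5.62 and 5.63, the WY mice at 5.62, 5.24 and 5.41, and the WO mice at 6.10, 5.72, 5.66, 4.92 and 4.97. Every MO mouse was therefore above every mouse of the other groups, and the 2 lowest WO mice were those of batch 2, which were also the only ones aged 294 days, so that batch and age cannot be told apart within WO. The 2 lowest MO mice, MO4 and MO5, were those of batch 2 as well, aged 224 and 175 days. The oldest MO mouse, MO3 at 245 days, was at 8.05. The part of batch in these values was not tested. The mean was 7.95 ± 0.41 for MO and 5.47 ± 0.51 for WO (SD, n = 5 each), and 5.61 ± 0.02 for MY and 5.42 ± 0.19 for WY (n = 3 each).

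Hspb1 was 5.05-fold higher in MO than in MY (log2FC 2.34, SE 0.21, FDR 0.000314 by limma) and 5.56-fold higher in MO than in WO (log2FC 2.47, SE 0.26, FDR 7.65e-05). It did not pass the test with age in wild-type mice (log2FC 0.05, 95% interval -0.56 to 0.66, and 0.40 with FDR 0.315 in batch 1 only, where the WO mice were 190 days old) or between young genotypes (log2FC 0.19, interval -0.04 to 0.42). The difference between the change with age in mutant mice and that in wild-type mice was 2.29 (SE 0.36, FDR 0.000651). Within batch 1, MO exceeded WO by 2.36 (n = 3 and 3), and within batch 2 by 2.64 (n = 2 and 2). Without MO5, the log2FC against WO was 2.50 (limma FDR 0.000308) and that against MY was 2.36 (FDR 0.000975). In GENCODE M21, 51.6% of the 50-base windows of its longest coding transcript also occurred in the pseudogene Hsp25-ps1, which is not analysed here, so how the authors' counting split reads between them is uncertain.

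Other cell markers moved with Hspb1. Of 8 reactive astrocyte genes, 7 were called higher in MO than in WO, and their summed level was 2391 to 3536 FPKM in MO against 696.2 to 890.9 in WO. Of 60 astrocyte genes from a list of the study, 12 were called higher and 1 lower, with summed levels of 4151 to 4532 FPKM in MO and 3677 to 3837 in WO. All 5 microglial genes were called higher, with summed levels of 79.6 to 179.7 FPKM in MO and 19.9 to 25.8 in WO. Of 8 axon injury genes, 2 were called higher against WO and 3 against MY: Atf3 was 2.89 to 3.94 in MO and at most 1.00 elsewhere, and Sprr1a was 3.88 to 4.95 against at most 0.89. Their part in the Hspb1 result was not tested, and in bulk tissue a change in cell numbers and a change in RNA per cell cannot be told apart.

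Hspb8 also rose, but by less. Its protein, HSP22, is the small heat shock partner of BAG3, and the gene lies on chr5:116408491-116422864, minus strand. The MO mice were at 5.86, 5.88, 5.52, 5.74 and 5.69. The WO mice were at 5.40, 5.06, 5.33, 5.30 and 5.04, and the 6 young mice were between 5.25 and 5.40. Every MO mouse was above every mouse of the other groups.

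Hspb8 was higher in MO than in WO by a log2FC of 0.51 (SE 0.09, limma FDR 0.00177), a 1.43-fold change, and higher than in MY by 0.41 (SE 0.08, FDR 0.00829), a 1.33-fold change, so it was not called. Its change with age was larger in mutant than in wild-type mice by 0.47 (SE 0.13, FDR 0.0207). This difference had an FDR of 0.0594 without MY1 and 0.0534 without WY1. Within batches, MO exceeded WO by 0.49 in batch 1 and by 0.54 in batch 2. Without MO5 the log2FC against WO was 0.53 (limma FDR 0.00414). No 50-base window of Hspb8 occurred in another gene's transcript.

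Cryab, the third small heat shock member, did not pass the test in any comparison. It encodes alpha B-crystallin, which is abundant in oligodendrocytes and astrocytes, and lies on chr9:50751325-50756636, plus strand. The MO mice were at 7.98, 8.50, 8.47, 8.79 and 8.58, and the WO mice at 8.79, 8.55, 8.49, 8.48 and 8.29. MO1 was the lowest of all 16 mice, and the groups overlapped. The log2FC was -0.06 in WO vs. MO (95% interval -0.37 to 0.25) and -0.10 in MY vs. MO (interval -0.45 to 0.26). Without MO1 these became 0.06 and 0.02, and within batches MO minus WO was -0.30 in batch 1 and 0.30 in batch 2. Of 35 oligodendrocyte genes, 3 were called lower in WO vs. MO and 13 in MY vs. MO, and their summed level spread from 6877 to 25475 FPKM within WO and from 8316 to 24123 within MO. Their part in the Cryab values was not tested. The gene overlaps the oppositely oriented Hspb2 over 1030 bases. The library kit was stranded, but whether strand was used in quantification is not given in the sources used here.

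The heat-inducible HSP70 genes Hspa1a (chr17:34969190-34972156) and Hspa1b (chr17:34956436-34959238), both on the minus strand with 9951 bases between them, encode near-identical proteins. Of the 50-base windows of the Hspa1a transcript, 58.8% also occurred in Hspa1b, so the split of reads between this pair is uncertain. Hspa1b was 2.62, 2.10, 1.14, 1.85 and 1.01 in the WO mice and 0.78, 1.58, 0.68, 1.09 and 1.12 in the MO mice. The MY mice were at 1.86, 1.28 and 1.70, and the WY mice at 1.14, 1.02 and 0.94. WO had the widest spread (SD 0.68), WY lay below every MY mouse, and MO overlapped both MY and WO.

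Neither gene passed the test in the fits as designed. Hspa1b was lower in MO than in WO by a log2FC of -0.69 (SE 0.30, limma FDR 0.113) and lower than in MY by -0.56 (SE 0.21, FDR 0.0878). The latter was called after quantile normalization (-0.68, FDR 0.0436) and without MO2 (-0.69, FDR 0.0235). It was higher in MY than in WY by 0.58 (SE 0.15, FDR 0.573). The change with age differed between genotypes by -1.27 (SE 0.43, FDR 0.0559), and this FDR was 0.0401 without MO2, 0.0318 without WO3 and 0.0250 without WO5. Among 8 other ways of processing, this difference also passed in 2, with an FDR as low as 0.0386. Hspa1a ranged from 1.29 to 2.18 in WO and from 1.38 to 1.72 in MO, with a log2FC of -0.26 (FDR 0.199). This was -0.38 without WO5 (FDR 0.0309) and -0.15 without WO1 (FDR 0.380). WO1 was the highest mouse for both genes.

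Hspa8 (chr9:40800984-40810087, plus strand) varied little, from 10.36 to 10.68 over all 16 mice. Its log2FC was 0.00 in WO vs. MO (95% interval -0.14 to 0.15) and -0.03 in MY vs. MO (interval -0.18 to 0.11). After quantile normalization, however, it was lower in MO in both comparisons, by -0.30 (limma FDR 0.0156) and -0.44 (FDR 0.00609), so whether it passed the test depended on the scaling. Of its 50-base windows, 73.2% occurred in transcripts of other genes, 11 in all, so the split of reads with them is uncertain.

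Hsph1 was the member that fell with disease. It lies on chr5:149614287-149636376, minus strand, and shared no 50-base window with another gene. The MO mice were at 6.21, 6.46, 6.18, 6.50 and 6.23, and the MY mice at 6.79, 6.60 and 6.68. The WO mice were at 6.89, 6.61, 6.72, 6.62 and 6.47, and the WY mice at 6.45, 6.57 and 6.47. Every MO mouse was below every MY mouse, whereas MO and WO overlapped through WO5.

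Hsph1 was lower in MO than in MY by a log2FC of -0.37 (SE 0.09, limma FDR 0.0162) and lower than in WO by -0.35 (SE 0.09, FDR 0.0143), and it was not called since both were under 1.5-fold. Its change with age differed between genotypes by -0.54 (SE 0.13, FDR 0.0112). The decrease against MY had an FDR of 0.0774 without MY1 and 0.0570 without MY3. Against WO it was -0.46 within batch 1 and -0.18 within batch 2. Without MO5 the log2FC was -0.32 against WO (limma FDR 0.0347) and -0.35 against MY (FDR 0.0339). Of 5 motor neuron genes, 1 was called lower in MO than in WO and none in MY vs. MO, and their summed level was 13.04 to 16.13 FPKM in MO and 21.6 to 23.8 in WO (Chat at most 3.40 against at least 3.85). It was 18.15 to 19.47 FPKM in MY and 14.03 to 19.76 in WY, which overlapped MO, as did Chat in WY (3.08 to 3.72). Their part in the Hsph1 result was not tested.

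Hsp90aa1, the stress-inducible cytosolic HSP90 (chr12:110690605-110702728, minus strand), ranged from 8.95 to 9.25 in MO, from 9.05 to 9.33 in WO and from 9.19 to 9.28 in MY. Its log2FC was -0.12 in WO vs. MO (95% interval -0.30 to 0.05) and -0.15 in MY vs. MO (interval -0.33 to 0.02). Neither passed the test, but both did after quantile normalization (-0.26 with limma FDR 0.00333, and -0.32 with FDR 0.00812). Of its 50-base windows, 58.5% occurred in transcripts of other genes.

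Dnajb1, the HSP40 partner of inducible HSP70 (chr8:83608193-83612653, plus strand), was highest in old wild-type mice. The WO mice were at 4.41, 4.33, 4.37, 4.50 and 4.25, the WY mice at 4.17, 4.11 and 4.06, and the MO mice at 4.10, 4.43, 4.12, 4.11 and 4.04. Every WO mouse was above every WY mouse, and MO2 alone of the MO mice was as high as WO. The log2FC was 0.26 in WY vs. WO (SE 0.06, limma FDR 0.0936) and -0.21 in WO vs. MO (SE 0.08, FDR 0.0606), which had an FDR of 0.00414 without MO2. Among 10 other ways of processing, WO vs. MO also passed in 2, with an FDR as low as 0.0354. The change with age differed between genotypes by -0.35 (SE 0.11, FDR 0.0464). That FDR was above 0.05 without any 1 of MO1, MO3, MO4, MO5, MY1, MY3, WO1, WO2, WO3, WO4, WY1, WY2 or WY3, and reached 0.136 without MY1.

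Bag3 (chr7:128523616-128546981, plus strand) lay between 4.07 and 4.56 in all 16 mice. Its log2FC was -0.14 in WO vs. MO (95% interval -0.30 to 0.02) and 0.04 in MY vs. MO (interval -0.11 to 0.20). Every WO mouse (4.22 to 4.56) was above every WY mouse (4.07 to 4.11), a log2FC of 0.24 (SE 0.07, limma FDR 0.208). Thus Hspb8 rose in MO while its partner Bag3 did not pass the test in either comparison; the difference between the 2 genes was not tested. Among 5 genes that act with BAG3, only Sqstm1, the autophagy receptor p62, passed the test: it rose by a log2FC of 0.25 in WO vs. MO (FDR 0.00527) and 0.31 in MY vs. MO (FDR 0.00564). Sqstm1 fell outside the rule for named genes and was chosen after its value was seen.

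**Figure D2:**
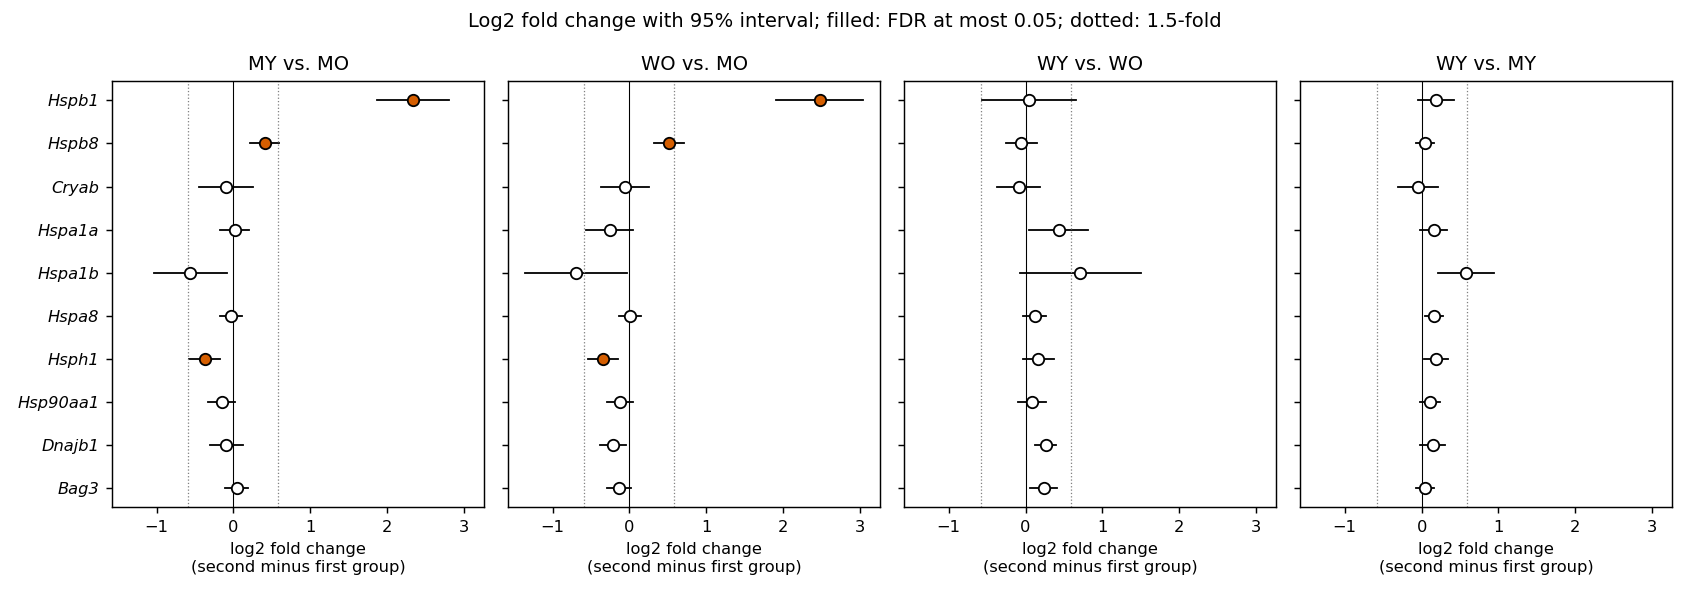
Log2 fold change (second minus first group) of the 10 members in the 4 comparisons with 95% intervals from limma; filled points had an FDR of at most 0.05 and dotted lines mark 1.5-fold. Hspb1 lies beyond 1.5-fold in both comparisons with MO (2.34 and 2.47), whereas Hspb8 and Hsph1 are filled but lie within it.

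Counted over the 10 members, 1 was called in MY vs. MO and 1 in WO vs. MO, Hspb1 in both, against 4.11% and 4.08% of all 18167 genes called higher. On FDR alone, 2 members rose in MY vs. MO, where 13.1% of all genes did, and 1 fell, where 12.5% did. In WO vs. MO, 2 rose (15.0% of all genes) and 1 fell (12.9%). The shares of members that rose or fell were thus near the background. Groups did not overlap for 2 members higher (15.7% of all genes) and 1 lower (15.9%) in MY vs. MO, and for 2 higher (11.3%) and 0 lower (8.65%) in WO vs. MO. The median log2FC over the members was -0.06 in MY vs. MO and -0.13 in WO vs. MO, beside 0.00 over all genes in each.

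No member passed the threshold in WY vs. WO, where batch differed along with age, or in WY vs. MY, where 2 transgenic lines were compared. Few genes of the whole table passed in either comparison, so not passing does not show that a member was unchanged. By limma, 0 of 10 passed the FDR in WY vs. WO, where 0.231% of all genes rose and 0.892% fell, and 3 had an unadjusted p under 0.05, as did 13.5% of all genes. In WY vs. MY, 0 of 10 passed, where 0.00550% of all genes rose and 0 fell, and 3 had an unadjusted p under 0.05, as did 7.16% of all genes. Even so, 2 members, Dnajb1 and Bag3, were higher in every WO mouse than in every WY mouse (3.80% of all genes), and 4 members, Hspa1b, Hspa8, Hsph1 and Hsp90aa1, were higher in every MY mouse than in every WY mouse (6.15%). Their log2FC in WY vs. MY were 0.58, 0.16, 0.19 and 0.11, with limma FDR of at least 0.573. For the difference between genotypes in the change with age, 1 member was called, higher (4.65% of all genes). On FDR alone, 2 were higher, Hspb1 and Hspb8 (10.5%), and 2 were lower, Hsph1 and Dnajb1 (7.19%).

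The small heat shock members were then set against the HSP70, HSP90 and HSP40 members within each mouse, as the mean of Hspb1, Hspb8 and Cryab minus the mean of Hspa1a, Hspa1b, Hspa8, Hsph1, Hsp90aa1 and Dnajb1. In the old mice this difference was 1.95 ± 0.13 for MO and 0.70 ± 0.13 for WO (SD, n = 5 each). In the young mice it was 0.86 ± 0.12 for MY and 1.03 ± 0.14 for WY (n = 3 each). The MO mice ranged from 1.80 to 2.08, and no other mouse was above 1.17. Without Hspb1 the MO mean was 1.66 and the range 1.51 to 1.79, which overlapped the WY range of 1.43 to 1.66 but not the WO range of 1.06 to 1.28. MO minus WO was 1.25 with Hspb1 and 0.50 without it, and MO minus MY was 1.08 and 0.36. With medians over members in place of means, and with Hspb1, MO minus WO was 2.57 and MO minus MY was 2.48. The middle small heat shock gene was Hspb1 itself in MO2 to MO5, in every MY mouse and in WO1 to WO3. It was Cryab in MO1, and Hspb8 in WO4 and WO5. The medians thus largely restate the Hspb1 change. This contrast of classes is a description of genes chosen with earlier results known and was not tested.

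**Figure D3:**
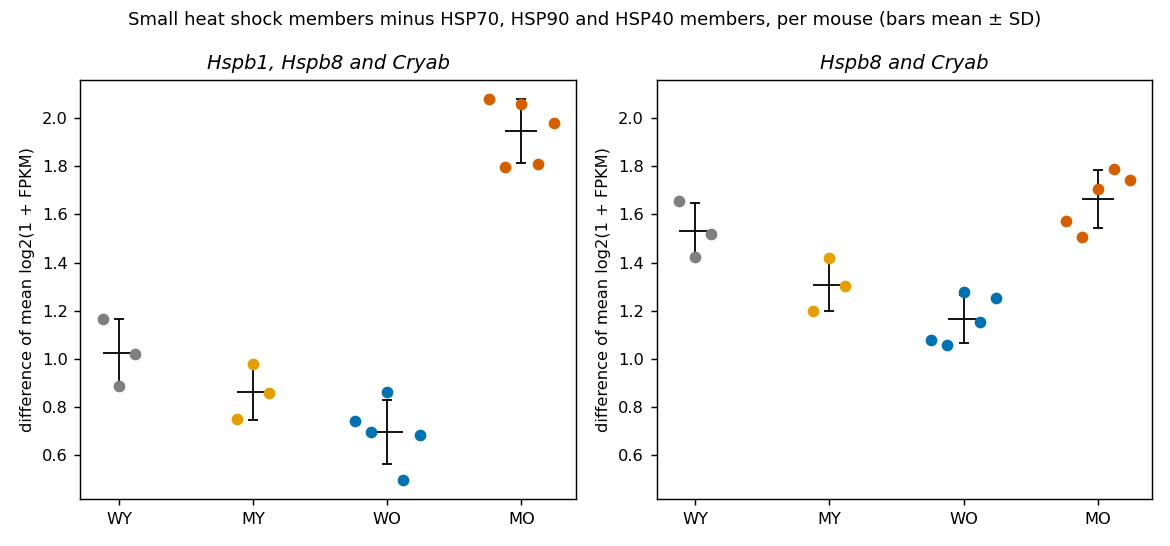
Mean log2(1 + FPKM) of the small heat shock members minus that of the HSP70, HSP90 and HSP40 members in each mouse, with Hspb1 (left) and without it (right); bars are the mean ± SD. The MO mice lie at 1.80 to 2.08 on the left, above all others, and at 1.51 to 1.79 on the right, where they overlap the WY mice.

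The pathway around the members was followed in a wider list of 82 chaperones and heat shock factors, which includes them. In WO vs. MO, 6 genes (7.32%) rose and 14 (17.1%) fell on FDR, beside 15.0% and 12.9% of all genes. In MY vs. MO, 7 (8.54%) rose and 13 (15.9%) fell, beside 13.1% and 12.5%. In the list, 2 genes were called higher in WO vs. MO, Hspb1 and Hspb6, and only Hspb1 in MY vs. MO, where 4.08% and 4.11% of all genes were called higher. The median log2FC of the 82 genes was -0.04 and -0.03, respectively. Of 9 small heat shock genes, 4 rose in WO vs. MO and none fell (median 0.15). Of 15 HSP70 genes, 1 rose and 5 fell (median -0.14), of 21 HSP40 genes none rose and 3 fell, and of 4 HSP90 genes 1 fell, Hsp90ab1 (log2FC -0.17, limma FDR 0.0222). None of 10 subunits of the chaperonins passed the test, with log2FC from -0.08 to 0.05.

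Hspb6, a small heat shock protein best known from muscle, was 3.90, 4.10, 4.22, 4.23 and 4.08 in the MO mice and 3.40, 3.07, 3.23, 3.16 and 3.32 in the WO mice. No MO mouse overlapped any other mouse, and the log2FC was 0.87 against WO (SE 0.08, limma FDR 3.20e-05) and 0.55 against MY (SE 0.09, FDR 0.00305). Among smooth muscle genes, 1 of 6 was called higher in MO, Tagln (3.94 to 4.73 against at most 3.09). Acta2 was 1.70 to 2.26 in MO and 1.89 to 2.34 in WO, and Myh11 was 1.01 to 1.15 against 1.21 to 1.44. Cnn1, Des and Myl9 had higher means in MO than in WO (0.29 against 0.20, 0.50 against 0.44, and 3.87 against 3.75). The summed level of the 6 smooth muscle genes was 29.4 to 43.0 FPKM in MO and 20.0 to 27.6 in WO. It was 21.7 to 25.5 FPKM in MY and 21.1 to 32.7 in WY. Among skeletal muscle genes, 1 of 10 was called higher in MO in both comparisons, Tnni2. It was 0.96 to 1.71 in MO, 0.15 to 0.69 in WO, 0.22 to 0.33 in MY and 0.37 to 1.19 in WY, which overlapped MO. The myosins Myh1, Myh2 and Myh4 were at most 0.11 in every mouse. The summed level of the 10 genes was 3.14 to 6.01 FPKM in MO and 3.86 to 5.00 in WO, and the part of these markers in the Hspb6 result was not tested. Hspb3 rose in WO vs. MO by a log2FC of 0.47 (FDR 0.000895), at a low level of at most 1.00. In MY vs. MO its log2FC was 0.32 and did not pass (FDR 0.0748), with 0.21 to 0.45 when a mouse was left out. There it passed without MY2 (FDR 0.0274), with all groups in 1 fit (FDR 0.0280) and with a replicate block (FDR 0.0465).

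Among the HSP70 genes, Hspa2 was the only one to rise, by a log2FC of 0.42 in WO vs. MO (limma FDR 0.00271) and 0.29 in MY vs. MO (FDR 0.0196), where its FDR was 0.0875 without MY1 and 0.0701 without MY3. Hspa4l, an HSP110 relative of Hsph1, fell by 0.52 (FDR 0.000232) and 0.56 (FDR 0.000593), and no MO mouse (5.30 to 5.53) overlapped a WO mouse (5.87 to 6.17). Hspa12a fell by 0.37 in WO vs. MO (FDR 0.000301) and by 0.43 in MY vs. MO (FDR 0.00107). A marker list of the study gave 71 neuron genes, which may not be the whole of that list. In each comparison with MO, 2 of them were called higher and 2 lower. Their summed level was 5065 to 5699 FPKM in MO, 6462 to 7190 in WO, 6480 to 6684 in MY and 5925 to 6492 in WY. Such a sum is weighted to high genes. The study instead took a geometric mean of log2(1 + FPKM) and reported no significant difference in neurons between the groups. The part of these genes in the falls of Hspa4l, Hspa12a, Dnajc6 and Hsph1 was not tested. Hspa12b, an endothelial HSP70 relative, fell by 0.45 in WO vs. MO (FDR 0.00169) and had a log2FC of -0.06 in MY vs. MO (FDR 0.464). None of 5 endothelial markers was called, but Cdh5 (1.36 to 1.72 in MO, 1.87 to 2.36 in WO) and Pecam1 (2.38 to 2.68 and 2.81 to 3.13) did not overlap, and Flt1, Cldn5 and Ly6c1 had lower means in MO with overlap. Their summed level was 66.4 to 92.3 FPKM in MO and 75.5 to 133.2 in WO, and their part in the Hspa12b result was not tested.

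Among HSP40 genes, Dnajc6, the neuronal auxilin that uncoats clathrin vesicles, fell by 0.23 in WO vs. MO (limma FDR 0.00766, and 0.113 in batch 1 only) and by 0.34 in MY vs. MO (FDR 0.000952). Dnajb14 fell by 0.48 in MY vs. MO (FDR 0.00575, and 0.121 with all groups in 1 fit) and had a log2FC of -0.31 in WO vs. MO (FDR 0.0877, and 0.0184 without WO1). The low Dnajb13 rose by 0.32 in MY vs. MO (FDR 0.0464), where its FDR was above 0.05 without any 1 of MO1, MO2, MO3, MY1, MY2 or MY3, with all groups in 1 fit (0.0731) and after quantile normalization (0.172). None of 3 heat shock factors passed the test in MY vs. MO, where the log2FC was -0.09 for Hsf1 (FDR 0.149) and -0.09 for Hsf4 (FDR 0.268). In WO vs. MO, 2 of the 3 fell. Hsf1 fell by 0.17 (FDR 0.0183), with every MO mouse below every WO mouse (the highest MO and the lowest WO mouse were both at 4.08 when rounded), and Hsf4 fell by 0.27 (FDR 0.0122); within batch 1 alone their FDR were 0.151 and 0.188.

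**Figure D4:**
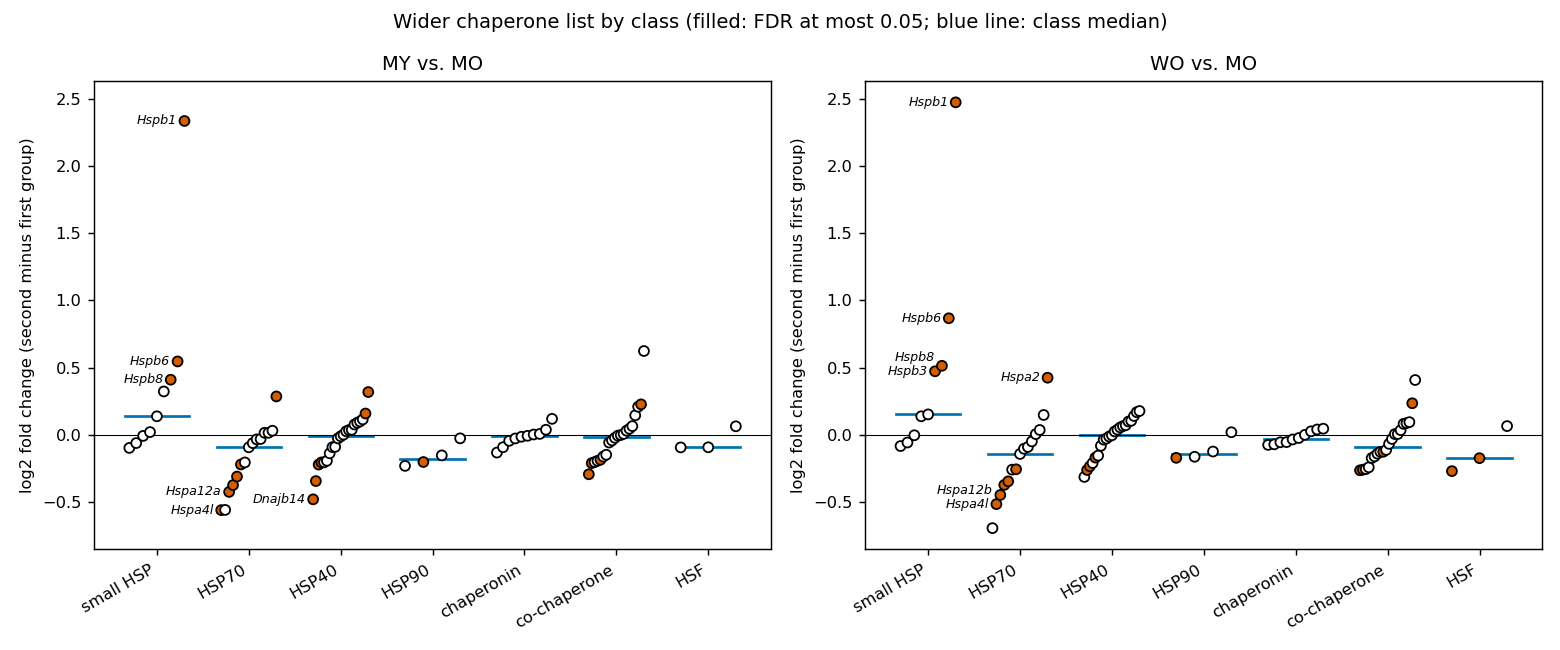
Log2 fold change (second minus first group) of the 82 chaperones and heat shock factors by class, in MY vs. MO and WO vs. MO; each point is a gene, filled points had an FDR of at most 0.05 by limma, and blue lines are class medians. Hspb1 (2.34 and 2.47) stands above all others, and the filled HSP70 genes lie below 0 except Hspa2.

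Promoters were searched for paired units of the heat shock element, to which heat shock factors bind. RefSeq promoter entries (GRCm38.p6) existed for 7 of the 10 members and 66 of the 82 chaperones; Cryab, Hspa8 and Hsp90aa1 had none. In the 250 bases before the start site, the motif GAANNTTC, which reads the same on both strands, was found in 3 of the 7 members, Hspb1, Hspa1a and Hspa1b, and in 6.69% of all 32851 promoters. It was found in 13 of the 66 chaperones. Members and chaperones were counted by gene, with a match in any entry, but the share of all promoters is by entry. The arrangement TTCNNGAA, also the same on both strands and able to share a unit with GAANNTTC, was found in 1 of the 7, Hsph1, in 8 of the 66 chaperones and in 7.17% of all promoters. Hspb1 held GAANNTTC from position -117 and again from position -97 relative to its start, and Hspa1a and Hspa1b each held it from position -104. These stretches are shown because the member that rose most and the pair that did not pass the test all hold the motif; the capitals mark it, each reads 5′ to 3′ on the gene's strand, and positions are chr5:135887784-135887838 (plus) for Hspb1, chr17:34972237-34972291 (minus) for Hspa1a and chr17:34959319-34959373 (minus) for Hspa1b.
Hspb1: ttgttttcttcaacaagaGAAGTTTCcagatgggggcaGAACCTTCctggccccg
Hspa1a: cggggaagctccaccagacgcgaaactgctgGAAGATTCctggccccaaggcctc
Hspa1b: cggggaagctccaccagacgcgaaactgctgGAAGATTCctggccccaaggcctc
The Hspa1a and Hspa1b stretches are the same, and over the 250 bases before the start 247 were identical between them. A match describes the letters only and shows neither binding nor a cause.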

How the data were processed

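RNA was measured in spinal cords of 16 mice. The authors trimmed reads with Trimmomatic, aligned them with TopHat to mm10, quantified FPKM with Cufflinks, removed genes at 0 in many samples and deposited log2(1 + FPKM) values after ComBat batch correction. Tool versions and ComBat covariates are not given in the sources used here. The correction left 915 values below 0, and any group difference it removed or added cannot be recovered.

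Each comparison was fitted to its 2 groups over 18167 genes with limma 3.58.1 in R 4.3.3 (lmFit, eBayes) and Benjamini-Hochberg adjustment; the difference between genotypes in the change with age used all 16 mice. A gene was called at an FDR of at most 0.05 and at least 1.5-fold. The fits were also run on simulated data with independent genes and no batch, which cannot check them on batch-corrected values. P-values measure the spread between single mice. Members, lists and tests were chosen with earlier results of these data known. Named genes were the members, Hsf1, called chaperones, and the 5 largest increases and decreases at that FDR in each comparison with MO. Hsp90ab1 and Sqstm1 were also given, outside this rule. Alternatives were batch 1 only, batch as a term, a mean filter of 1, 1 fit over all groups, quantile normalization, an intensity trend, a pseudocount of 0.1, a test against 1.2-fold, FDR alone, a replicate block and leaving out each mouse. They are not independent checks. In MY vs. MO, batch 1 only, batch as a term and the replicate block gave the same log2FC (2.58 for Hspb1). FDR alone used the values of the main fit. Gene positions came from GENCODE M21 and promoters from RefSeq.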

Additional observations from a re-analysis of the deposited data

Results flagged for a closer look

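The change with age (old minus young) differed between mutant and wild-type mice for 11 of the 21 genes named by the rule above. This was by limma's interaction term over all 16 mice, beside 10.5% of all genes higher and 7.19% lower. Most genes other than the members were named for their change in comparisons that share the MO mice with this term, so the count of 11 is not independent of that choice and is not to be read against those shares. The log2 difference, mutant minus wild-type, was 2.29 for Hspb1 (FDR 0.000651), 0.84 for Hspb6 (FDR 0.000324), 0.47 for Hspb8 (FDR 0.0207) and 0.36 for Hspa2 (FDR 0.0429). It was -0.78 for Hspa4l (FDR 0.00667), -0.56 for Hspa12a (FDR 0.00985), -0.54 for Hsph1 (FDR 0.0112) and -0.40 for Dnajc6 (FDR 0.0416). It was -0.35 for Dnajb1 (FDR 0.0464), -0.30 for Hsf1 (FDR 0.0161) and -0.30 for Hsf4 (FDR 0.0389). Whether 4 of these genes passed the FDR often changed when 1 mouse was left out. Of the 16 such fits, Hspa2 passed in 2 (without MO4 or WO4), with an FDR of up to 0.110 (without MY1). Dnajb1 passed in 3 (without MO2, MY2 or WO5). Dnajc6 passed in 5 (without MO1, MO4, WO1, WY2 or WY3), and it was -0.25 without WY1 (FDR 0.0697). Hsf4 passed in 5 (without MO1, MO4, WO1, WO2 or WO3), with an FDR of up to 0.0974 (without MY3). The Hspb8 difference had an FDR above 0.05 without MY1 or WY1. Without WY1, Hspa4l was -0.57 and Hspa12a -0.39, and both still passed the FDR, with Hspa4l then under 1.5-fold. Batch 2 held old mice only, whereas batch 1 held 3 mice of each group. In batch 1 alone the FDR was above 0.05 for Hspb8 (0.0781), Dnajb1 (0.155), Hsf1 (0.0635), Dnajc6 (0.144) and Hsf4 (0.168).

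In 3 of 42 groups of 5 mice a single mouse stood far from the others, where chance gives about 1 in 20. For Dnajb1, MO2 was high at 4.43. For Bag3, WO1 was high at 4.56. For Dnajc6, MO3 was low at 5.41. Hspb1, Hspb8, Cryab, Hsph1, Hspa1a, Hspa1b, Hspa8 and Hsp90aa1 had no such mouse in MO or WO.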

How the results depend on the processing

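Hspb1 was called in every alternative of MY vs. MO and WO vs. MO, with log2FC of 2.21 to 2.58 and 2.34 to 2.63. The members called in MY vs. MO numbered 3 on FDR alone, 2 after quantile normalization and 1 to 2 with a mouse left out (2 without MO2), Hspa1b being the other in both, and in WO vs. MO 3 on FDR alone. For the difference in the change with age, they numbered 4 on FDR alone, 2 in batch 1 only, with a mean of at least 1 or after quantile normalization, and 1 to 3 with a mouse left out (2 without MO2 or WO3, 3 without WO5). Of the wider list, 20 passed on FDR alone in MY vs. MO and 20 in WO vs. MO; in MY vs. MO, 2 were called in batch 1 only, with batch as a term, after quantile normalization, with a pseudocount of 0.1, against 1.2-fold and with a replicate block, and 1 to 3 with a mouse left out (2 without MO1 or MO2, 3 without MY2). With a pseudocount of 0.1 or against 1.2-fold, 3 of the wider list were called in WO vs. MO. Hspa8 moved from 0.00 to -0.30 in WO vs. MO after quantile normalization, and the cause was not tested. That normalization moved the median of all genes by no more than -0.03. Against a 1.2-fold threshold, Hspb8 had an FDR of 0.145 in WO vs. MO and 0.602 in MY vs. MO. The class difference was 2.48 in MY vs. MO and 2.57 in WO vs. MO as a median over members, where Hspb1 itself was mostly the middle small heat shock gene. Without Hspb1, an alternative chosen after seeing the data, the class difference of means was 0.36 and 0.50.

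Same-numbered mice did not deviate together (correlations across genes from -0.21 to 0.38), so the numbers do not pair the mice. With the replicate block, the FDR in MY vs. MO was 0.0551 for Hspb8 and 0.0502 for Hsph1.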
